A study of Homo sapiens with 35 samples.

Results

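Integrins and laminins were followed at the RNA level while H1 human embryonic stem cells, an established line, were driven towards definitive endoderm, the layer from which the gut, liver and pancreas form. The members were taken by symbol: every gene of the bulk table named as an integrin alpha or beta chain or as a laminin alpha, beta or gamma chain. The rule used no measured value, and it found 35 genes among the 16103 of the table. They are 16 integrin alpha chains, 7 integrin beta chains, 5 laminin alpha chains, 4 laminin beta chains and 3 laminin gamma chains.

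Integrins are receptors in the cell membrane, each built of an alpha and a beta chain, that hold cells to the extracellular matrix and pass signals in both directions. The alpha chain largely sets what is bound: the alpha-3, alpha-6 and alpha-7 chains with beta-1 bind laminin, alpha-5 with beta-1 binds fibronectin, alpha-2 with beta-1 binds collagen, alpha-4 and alpha-9 bind fibronectin variants, VCAM1, tenascin or osteopontin, and alpha-V with several beta chains binds vitronectin and latent TGF-beta. Laminins are secreted trimers of an alpha, a beta and a gamma chain and form the first sheet of a basement membrane. LAMA1 and LAMA5 encode the alpha chains of the trimers typical of early embryos and stem cells, and both pair with the LAMB1 and LAMC1 products. During gastrulation, cells that leave the epiblast to become endoderm or mesoderm cross or replace a basement membrane.

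The bulk samples came from cells seeded on plates coated with Geltrex, a basement membrane extract that itself contains laminin protein. At 6 h the groups were 100 ng/ml Activin A with 3 µM CHIR99021 (CHIR, a GSK3 inhibitor that switches on Wnt signalling), BRD with CHIR, JNJ with CHIR, CHIR alone, BRD without CHIR, and untreated cells. At 24 h the same treatments were sampled except that the untreated pair was not analysed here. At 72 h the cells were sorted as definitive endoderm, by a gate that the labels do not give, after CHIR on the first day and one of 4 inducers throughout: BRD with LoAA, BRD, JNJ, or Activin A. BRD and JNJ are compounds known here by code names, their doses are not in the labels, and the labels do not define LoAA. Each of these 15 bulk groups held 2 libraries, and 3 single-cell libraries were also made: cells labelled primitive streak at 36 h and definitive endoderm at 72 h, both under the Activin A protocol, and mesoderm at 72 h under STEMdiff Mesoderm Induction medium. The 6 h and 24 h bulk cells were not sorted, so fewer cells of a type and less RNA per cell cannot be told apart.

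The bulk libraries held 4572437 to 49503884 expected counts, and the members took 0.122% to 0.215% of them. The sample titles run in 3 number series that split the libraries by stage: 33 for the 6 h set, 38 for the 24 h set, and 46 for the 72 h set and for BRD without CHIR at both times. The MTRNR2L genes took 7.58% to 13.9% of counts in series 46 against at most 1.10% elsewhere, so stage and series cannot be told apart in comparisons that cross them. Levels are given in CPM, the count of a gene scaled to a common library size over all 30 libraries, and differences are log2 fold changes from edgeR's quasi-likelihood test with its standard error (SE) and a Benjamini-Hochberg adjusted p over all genes tested. A member was called when that adjusted p was below 0.05. Nothing in the labels says whether the 2 libraries of a group were separate cultures, so the p-values measure the spread between these libraries, which may be technical.

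When Activin A had been present for 6 h, 3 of 32 members were called, against 1.49% of all genes: ITGA6 was lower, and ITGAV and ITGB5 were higher. The ITGAV and ITGB5 calls rest on single libraries. None of the 3 passed in a single fit over all libraries, as given below. The 250 bases upstream of one annotated RefSeq start of each gene are shown, 5′ to 3′ on the gene's strand (build GRCh38.p14). These genes were taken because they were called under Activin A at the first time sampled, which shows no order of response. Matches to the 5 motifs searched would be in capitals. ITGA6 spans 172427354 to 172506282 on the plus strand of chromosome 2 in GENCODE, and the window is chr2:172427086-172427335.
ITGA6: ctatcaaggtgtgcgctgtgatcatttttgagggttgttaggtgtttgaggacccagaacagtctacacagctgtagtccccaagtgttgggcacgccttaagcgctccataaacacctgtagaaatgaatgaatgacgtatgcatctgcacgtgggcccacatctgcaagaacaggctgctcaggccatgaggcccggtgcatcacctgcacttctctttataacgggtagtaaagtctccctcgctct
ITGAV spans 186590065 to 186680901 on the plus strand of chromosome 2, and the window is chr2:186589806-186590055.
ITGAV: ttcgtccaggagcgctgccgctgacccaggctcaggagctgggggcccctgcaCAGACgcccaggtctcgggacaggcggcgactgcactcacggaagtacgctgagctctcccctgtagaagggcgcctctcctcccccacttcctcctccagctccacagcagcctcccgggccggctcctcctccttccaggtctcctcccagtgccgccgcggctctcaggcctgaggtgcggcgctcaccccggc
ITGB5 spans 124761948 to 124901418 on the minus strand of chromosome 3, and the window is chr3:124901419-124901668.
ITGB5: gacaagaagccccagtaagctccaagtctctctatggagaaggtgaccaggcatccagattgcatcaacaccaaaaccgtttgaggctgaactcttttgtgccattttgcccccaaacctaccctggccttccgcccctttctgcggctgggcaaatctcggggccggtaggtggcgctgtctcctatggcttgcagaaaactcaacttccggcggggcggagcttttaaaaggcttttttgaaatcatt
The motifs were searched on both strands in every promoter window of the table, of which 31 belong to 24 member symbols. GTCTG, the letters of a SMAD element, stood in 12 member windows (38.7%) against 13345 of all 35116 windows; in the ITGAV window it reads CAGAC, its reverse complement. The TCF/LEF letters CTTTGAT stood in no member window against 2.26% of all windows. The FOXH1 letters AATNNACA stood in 2 member windows (6.45%) against 9.88% of all windows. The T-box letters GGTGTGA stood in 3 member windows (9.68%) against 2.76% of all windows. Of these, 1 belongs to ITGA1, and the other 2 are overlapping windows of LAMB3 that hold the same site. That site was therefore counted more than once. The GATA letters AGATAA stood in 2 member windows (6.45%) against 9.17% of all windows. The ITGA6 and ITGB5 windows shown hold none of the 5 sets of letters, which says nothing about what binds elsewhere. No window of LAMA1, ITGA3 or ITGA9 was matched.

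Few chains carried most of the signal. Compared per kilobase of exon, ITGB1, the shared partner of most alpha chains, was the highest integrin in each of the 5 groups set side by side: 114 CPM per kb with Activin A and CHIR at 24 h, 101 with CHIR at 24 h, 88.6 in BRD endoderm, 109 in Activin A endoderm and 91.4 in untreated cells at 6 h. ITGB5 followed among the beta chains, at 47.8 CPM per kb with Activin A and CHIR at 24 h and 38.2 in untreated cells. Among alpha chains, untreated cells at 6 h had 31.8 CPM per kb of ITGA6, 8.12 of ITGA5 and 5.72 of ITGAV. With Activin A and CHIR at 24 h the order of these levels was different: 30.2 CPM per kb of ITGA5, 6.92 of ITGAV, 6.64 of ITGA6 and 6.57 of ITGA4, the last 3 lying close together. In Activin A endoderm at 72 h ITGA5 (22.5 CPM per kb) and ITGAV (21.4) were close to each other and above ITGA4 (12.1) and ITGA6 (5.33).

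Of the 35 members, 13 stayed below 10 CPM in every bulk library: ITGA11, ITGA2B, ITGA8, ITGAM, ITGAX, ITGB2, ITGB3, ITGB4, ITGB7, LAMA3, LAMA4, LAMB3 and LAMB4. They include the leukocyte integrin chains ITGAM, ITGAX, ITGB2 and ITGB7 and, in ITGB4, LAMA3 and LAMB3, chains of the skin-type hemidesmosome and its laminin. After the filter on low counts, 32 members were tested at 6 h, 35 at 24 h and 27 at 72 h. The filter removed ITGAX, ITGB2 and ITGB7 at 6 h, and at 72 h those 3 together with ITGA11, ITGAM, LAMA3, LAMA4 and LAMB3.

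At 6 h no member passed the test under CHIR alone, and adding Activin A changed 3 integrin chains. With CHIR against no treatment, 0 of 32 members were called by edgeR, against 2.96% of all genes (1.69% higher and 1.28% lower); 6 members had an unadjusted p below 0.05, and DESeq2 also called 0. LAMB1 had 45.3 and 49.5 CPM with CHIR against 39.4 and 30.8 in untreated cells, without overlap (log2 difference 0.43 ± 0.14 SE, adjusted p = 0.153). ITGA6 had 225 and 207 CPM with CHIR against 191 and 184 in untreated cells (0.20 ± 0.09, adjusted p = 0.36). ITGAL, an alpha chain of leukocyte integrins, had 5.86 and 5.15 CPM with CHIR against 9.56 and 9.17 in untreated cells, also without overlap (-0.77 ± 0.30, adjusted p = 0.255). None of these differences passed the test. The largest difference of the fixed list of integrin adaptors was in vinculin (VCL), which links talin to actin and fell by 0.54 ± 0.07 on the log2 scale (743 against 1079 CPM, adjusted p = 9.62e-05); 3 of 29 adaptors were lower, with PXN and KRIT1, and none was higher.

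Adding Activin A to CHIR changed 3 of 32 members at 6 h, 2 higher and 1 lower, against 1.49% of all genes called in either direction (0.76% higher and 0.733% lower). ITGA6, the laminin-binding alpha chain that is high in stem cells, had 123 and 148 CPM with Activin A and CHIR against 225 and 207 CPM with CHIR (log2 difference -0.67 ± 0.09 SE, 95% interval -0.87 to -0.48, adjusted p = 0.000532). Both Activin A libraries lay below both CHIR libraries. ITGB5, a partner of alpha-V in vitronectin receptors, had 260.3 and 238 CPM with Activin A and CHIR against 160.3 and 186 CPM with CHIR (0.52 ± 0.09, adjusted p = 0.00443). ITGAV had 50.5 and 65.9 CPM with Activin A and CHIR against 37.3 and 38.9 CPM with CHIR (0.61 ± 0.13, adjusted p = 0.0218). The groups did not overlap for either chain. The ITGA6 call held whichever of the 4 libraries was left out, but the other 2 rest on single libraries. The ITGAV call was lost without Activin A replicate 2 (adjusted p = 0.203), CHIR replicate 1 (0.219) or CHIR replicate 2 (0.129), and the ITGB5 call without Activin A replicate 1 (0.0776) or CHIR replicate 1 (0.128), the last leaving 1 member called. In a single fit over all 30 libraries, which share one estimate of the spread, none of the 3 passed (adjusted p = 0.0577 for ITGA6, 0.0857 for ITGB5 and 0.312 for ITGAV).

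ITGA5, LAMA1, LAMA5, LAMB1, LAMC1 and ITGB1 did not pass the test at 6 h under Activin A. ITGA5 had 44.8 and 36.0 CPM with Activin A and CHIR against 28.4 and 31.7 CPM with CHIR (log2 difference 0.43 ± 0.16, adjusted p = 0.294). LAMA5 had 41.6 and 48.2 CPM with Activin A and CHIR against 57.0 and 54.8 CPM with CHIR (-0.31 ± 0.13, adjusted p = 0.345). The differences of LAMB1 (0.13 ± 0.14), LAMC1 (0.06 ± 0.09), LAMA1 (-0.02 ± 0.10) and ITGB1 (0.15 ± 0.08) were smaller, and no laminin chain was called. Paxillin (PXN), a focal adhesion scaffold, was the adaptor called at this time (135 against 91.7 CPM, 0.56 ± 0.09, adjusted p = 0.00333).

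In the fit of the 24 h stage the members called under Activin A were all alpha chains, with ITGA5, ITGA4 and ITGA9 higher and ITGA6 and ITGA3 lower. Of 35 members 5 were called, 3 higher and 2 lower, against 2.86% of all genes in either direction (1.24% higher and 1.62% lower). The beta chain ITGB4 did not pass in this fit, at 0.575 to 2.55 CPM with Activin A and CHIR against 8.89 to 9.10 CPM with CHIR. DESeq2 called it lower (log2 difference -2.51, adjusted p = 0.00807), as did a single edgeR fit over all 30 libraries (-2.51, 0.0222). Both also called ITGA2B lower (-2.01 in each, adjusted p = 0.0496 and 0.0128). ITGA6 had 49.5 and 29.0 CPM with Activin A and CHIR against 141 and 171 CPM with CHIR (log2 difference -1.99 ± 0.20 SE, 95% interval -2.41 to -1.58, adjusted p = 1.25e-05). ITGA5 had 134 and 134 CPM with Activin A and CHIR against 50.9 and 37.7 CPM with CHIR (1.60 ± 0.19, 95% interval 1.19 to 2.01, adjusted p = 0.000112). For both chains the groups lay far apart, and both calls held under each of the 10 alternatives tried, including each library left out.

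The other 3 chains were lower in level and less certain. ITGA4 had 24.5 and 36.1 CPM with Activin A and CHIR against 10.4 and 11.1 CPM with CHIR (log2 difference 1.49 ± 0.33, adjusted p = 0.0182). ITGA9 had 26.5 and 24.4 CPM with Activin A and CHIR against 9.69 and 7.82 CPM with CHIR (1.54 ± 0.34, adjusted p = 0.0189). ITGA3 had 14.2 and 9.77 CPM with Activin A and CHIR against 28.3 and 23.6 CPM with CHIR (-1.11 ± 0.29, adjusted p = 0.0471). The groups did not overlap for any of them. ITGA3 and ITGA9 lost their calls whichever of the 4 libraries was left out (adjusted p 0.0617 to 0.351 for ITGA3 and 0.0813 to 0.168 for ITGA9), and ITGA3 also without the BRD libraries that had no CHIR (0.0524). ITGA4 lost its call without Activin A replicate 2 (0.250), CHIR replicate 1 (0.157) or CHIR replicate 2 (0.123), so that only 2 members were then called.

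**Figure D1:**
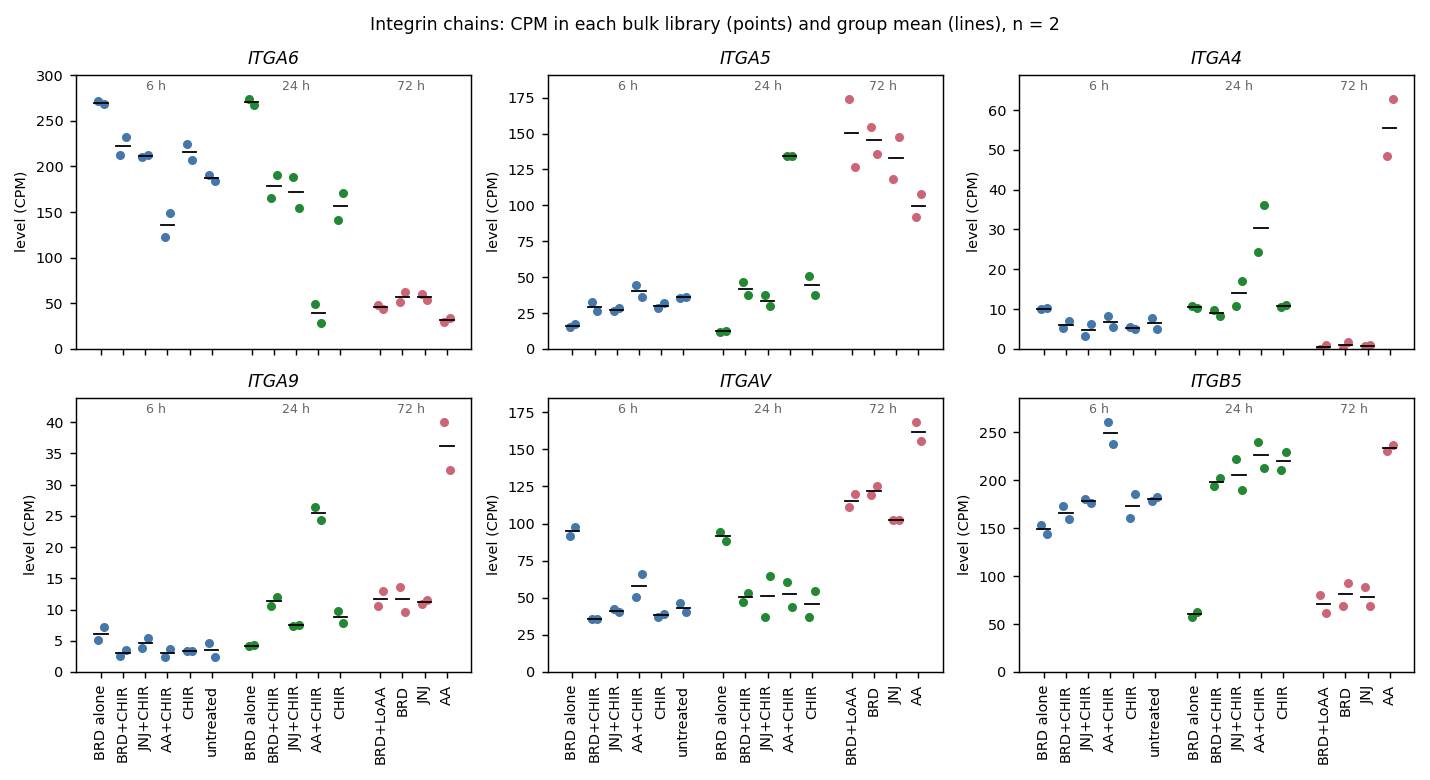
Levels of ITGA6, ITGA5, ITGA4, ITGA9, ITGAV and ITGB5 in CPM (vertical axes) in the 15 bulk groups, ordered by time on the horizontal axes; each point is 1 library and each bar the mean of the 2. ITGA6 is lowest in the Activin A groups at each time, and ITGA4 is near 0 in the 3 compound groups at 72 h.

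No laminin chain was called under Activin A at 24 h in the fit of that stage, although LAMA1, LAMB1 and LAMC1 were all well above their 6 h levels in both arms. LAMB1 had 205 and 223 CPM with Activin A and CHIR against 250.2 and 239 CPM with CHIR (log2 difference -0.19 ± 0.13, adjusted p = 0.559). LAMA5 had 58.7 and 46.9 CPM with Activin A and CHIR against 67.8 and 85.7 CPM with CHIR (-0.54 ± 0.20, adjusted p = 0.212), but it passed in a single fit over all 30 libraries (adjusted p = 0.0458). LAMA1 (-0.13 ± 0.12), LAMC1 (0.07 ± 0.11), ITGAV (0.20 ± 0.24) and ITGB1 (0.18 ± 0.09) also did not pass. ITGB5, called at 6 h, averaged 226 CPM with Activin A and CHIR against 220 CPM with CHIR and was not called.

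Around the members, FERMT2 (kindlin-2), which binds integrin beta tails and helps to activate them, was higher as well: it averaged 471 CPM with Activin A and CHIR against 154 CPM with CHIR (log2 difference 1.61 ± 0.11, adjusted p = 1.35e-07), the 1 adaptor called of 29. None of the 19 other basement membrane components tested was called by edgeR, with 8 below an unadjusted p of 0.05. Of 21 other integrin ligands 4 were higher and 1 lower, against 1.24% and 1.62% of all genes tested. COL5A1, a fibrillar collagen chain, averaged 165 CPM with Activin A and CHIR against 56.7 CPM with CHIR (1.54 ± 0.17, adjusted p = 3.44e-05), and FBN2, a microfibril protein with an integrin-binding motif, 365 against 172 CPM (1.09 ± 0.14, adjusted p = 0.000261). Of 21 non-integrin laminin receptors and netrins 1 was higher and 3 lower. NTN1, a secreted protein related to laminin, averaged 62.7 CPM with Activin A and CHIR against 8.84 CPM with CHIR (2.82 ± 0.39, adjusted p = 0.000384), whereas the laminin receptor BCAM averaged 24.8 against 47.0 CPM (-0.92 ± 0.19, adjusted p = 0.0131).

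These unsorted cultures also differed in cell state. The summed level of 5 primitive streak markers was 2322 CPM with Activin A and CHIR against 1185 CPM with CHIR at 24 h, and 4 mesoderm markers summed to 126 against 4.68 CPM, with MESP1 and HAND1 at 0 under CHIR. The 6 definitive endoderm markers summed to 1431 CPM with Activin A and CHIR against 190 CPM with CHIR. Among them CXCR4 was at 0 in both groups and SOX17 at 0 under CHIR. The 5 pluripotency markers summed to 2111 CPM with Activin A and CHIR against 2875 CPM with CHIR. The part of these states in the integrin differences was not tested.

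The Activin A difference was set against itself at both times in a single fit, as the 24 h difference minus the 6 h difference, and 3 of 35 members were called, against 2.04% of all genes (0.808% higher and 1.23% lower). That fit, also used for the comparisons between times below, pools a spread that differed between times. The common coefficient of variation between libraries was 0.140 at 6 h, 0.406 at 24 h and 0.256 in the pooled fit, so these adjusted p-values may be too small for the 24 h libraries. For ITGA6 this interaction was -1.32 ± 0.23 on the log2 scale (adjusted p = 0.00118), so the fall was larger at 24 h. For ITGA5 it was 1.17 ± 0.25 (adjusted p = 0.00836), and for ITGA3 -1.64 ± 0.35 (adjusted p = 0.00841). ITGA3 had 23.3 and 17.7 CPM with Activin A and CHIR against 14.4 and 14.1 CPM with CHIR at 6 h, the opposite order from 24 h. The ITGA6 call held in all 13 alternatives. The ITGA5 call was lost without Activin A replicate 2 at 6 h (adjusted p = 0.0727), CHIR replicate 2 at 6 h (0.0606) or CHIR replicate 2 at 24 h (0.0528), and the ITGA3 call without Activin A replicate 1 at 6 h (0.0725), Activin A replicate 2 at 24 h (0.0516) or CHIR replicate 2 at 6 h (0.0538), and in a fit of only the libraries compared (0.0530). Without CHIR replicate 2 at 6 h, ITGA6 alone was called.

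In the fits of each stage, no member passed the test for either compound over CHIR in the first day. BRD with CHIR against CHIR gave 0 calls among 32 members at 6 h and 0 among 35 at 24 h by edgeR, with 0 below an unadjusted p of 0.05 at both times, and 0% of all genes was called at either time. JNJ with CHIR against CHIR gave 0 of 32 at 6 h (1 below an unadjusted p of 0.05) against 0.0202% of all genes (0.0134% higher and 0.00672% lower), and 0 of 35 at 24 h (2 below 0.05) against 0.154% of all genes (0.109% higher and 0.0449% lower). DESeq2 called 0 members in each of these 4 comparisons, and a single fit over all 30 libraries called 1, LAMA4 under JNJ at 24 h (adjusted p = 0.0455), from counts of 0 and 0 with JNJ and CHIR against 17 and 25 with CHIR. ITGA6 at 24 h had 166 and 190.3 CPM with BRD and CHIR against 141 and 171 CPM with CHIR, a log2 difference of 0.19 with a 95% interval of -0.21 to 0.59. With JNJ and CHIR it had 189 and 155 CPM, a difference from CHIR of 0.13 with an interval of -0.26 to 0.53. Both intervals lie far from the Activin A difference of -1.99. ITGA5 had 46.7 and 37.5 CPM with BRD and CHIR (-0.07, interval -0.48 to 0.33) and 37.5 and 29.9 CPM with JNJ and CHIR (-0.39, interval -0.80 to 0.01), against 50.9 and 37.7 CPM with CHIR.

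ITGA6 was higher and ITGA5 lower under either compound than under Activin A at 24 h. BRD with CHIR differed from Activin A with CHIR in 3 of 35 members, 1 higher and 2 lower, against 2.75% of all genes (1.53% higher and 1.22% lower). ITGA6 was higher by 2.18 ± 0.20 on the log2 scale (adjusted p = 5.22e-06), ITGA5 was lower (-1.67 ± 0.19, adjusted p = 6.85e-05), and ITGA4, at 9.83 and 8.25 CPM with BRD and CHIR against 24.5 and 36.1 CPM with Activin A and CHIR, was lower too (-1.74 ± 0.33, adjusted p = 0.00682). JNJ with CHIR also differed in 3 of 35 members, 1 higher and 2 lower, against 4.67% of all genes (2.4% higher and 2.27% lower). ITGA6 was higher (2.13 ± 0.20, adjusted p = 4.47e-06), ITGA5 was lower (-1.99 ± 0.20, adjusted p = 8.00e-06), and ITGA9, at 7.41 and 7.53 CPM with JNJ and CHIR against 26.5 and 24.4 CPM with Activin A and CHIR, was lower (-1.76 ± 0.34, adjusted p = 0.00527). The ITGA4 call was lost without Activin A replicate 2 (adjusted p = 0.120), BRD replicate 1 (0.0542) or BRD replicate 2 (0.100), and the ITGA9 call without Activin A replicate 1 (0.0503). These comparisons share the Activin A libraries with each other and with the comparison against CHIR.

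**Figure D2:**
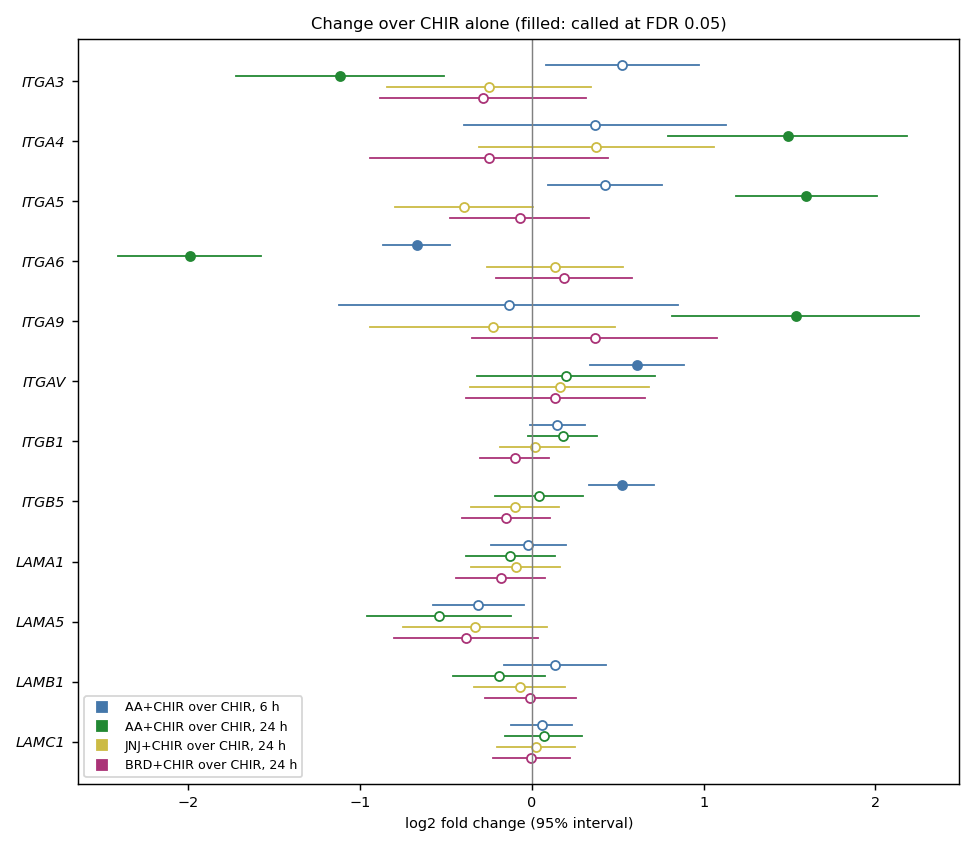
Log2 difference from CHIR (horizontal axis) of 12 members under Activin A with CHIR at 6 h and 24 h and under JNJ or BRD with CHIR at 24 h; points are edgeR estimates and bars their 95% intervals. At 24 h the Activin A interval of ITGA6 runs from -2.41 to -1.58 and that of ITGA5 from 1.19 to 2.01, whereas the compound intervals of both include 0.

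Between 6 h and 24 h LAMA1, LAMB1 and LAMC1 rose in CHIR-treated cells with and without Activin A. With CHIR, 15 of 35 members differed between 24 h and 6 h, 12 higher and 3 lower, against 37.4% of all genes (17.9% higher and 19.5% lower), so the share of members called was not far from that of genes at large. LAMB1 had 250.2 and 239 CPM at 24 h against 45.3 and 49.5 CPM at 6 h (log2 difference 2.37 ± 0.14, adjusted p = 7.86e-13). LAMA1 had 151 and 154 CPM at 24 h against 74.3 and 72.8 CPM at 6 h (1.05 ± 0.12, adjusted p = 1.01e-07). LAMC1 had 341 and 342 CPM at 24 h against 175 and 181 CPM at 6 h (0.94 ± 0.11, adjusted p = 2.95e-07). No 24 h library of these 3 chains overlapped a 6 h one, and the 3 calls held in all 9 alternatives.

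ITGA6 fell with CHIR as well, to 141 and 171 CPM at 24 h against 225 and 207 CPM at 6 h (log2 difference -0.47 ± 0.16, adjusted p = 0.0233). That call was lost without CHIR replicate 1 at 6 h (adjusted p = 0.132) or CHIR replicate 1 at 24 h (0.203). LAMA5, the other alpha chain of these laminins, rose less (76.8 against 55.9 CPM on average, 0.46 ± 0.17, adjusted p = 0.0327), and its call was lost without CHIR replicate 1 at 6 h (0.0938), CHIR replicate 2 at 6 h (0.146) or CHIR replicate 2 at 24 h (0.291). The number of members called fell to 9 without CHIR replicate 1 at 6 h, to 9 without CHIR replicate 2 at 6 h and to 8 without CHIR replicate 1 at 24 h. Among the other basement membrane components 11 of 20 were higher and 0 lower, against 17.9% and 19.5% of all genes tested. They were led by HSPG2, the core protein of perlecan (257 against 81.4 CPM, 1.66 ± 0.15, adjusted p = 2.04e-09), and COL4A1, a type IV collagen chain (147 against 74.5 CPM, 0.98 ± 0.10, adjusted p = 2.35e-08).

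With Activin A and CHIR, 17 of 35 members differed between 24 h and 6 h, 11 higher and 6 lower, against 41.8% of all genes (20.1% higher and 21.7% lower). LAMB1 (214 against 52.1 CPM on average, log2 difference 2.04 ± 0.14, adjusted p = 9.00e-12), LAMC1 (0.95 ± 0.11, adjusted p = 1.94e-07) and LAMA1 (0.95 ± 0.12, adjusted p = 4.60e-07) rose here too. ITGA6 fell (39.2 against 136 CPM, -1.79 ± 0.17, adjusted p = 3.19e-09). ITGA5 rose (134 against 40.4 CPM, 1.73 ± 0.18, adjusted p = 1.45e-08), as did ITGA9 (25.4 against 3.02 CPM, 3.06 ± 0.36, adjusted p = 1.12e-07) and ITGA4 (30.3 against 6.81 CPM, 2.15 ± 0.44, adjusted p = 0.000263). These 7 calls held in all 9 alternatives, while the number of members called was 11 without Activin A replicate 2 at 24 h. LAMA5 had 58.7 and 46.9 CPM at 24 h against 41.6 and 48.2 CPM at 6 h, overlapping, and did not pass (0.23 ± 0.17, adjusted p = 0.286). Of 20 other basement membrane components 9 were higher and 0 lower.

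BRD without CHIR is the comparison of times that stays within a title series, and there only LAMB1 and LAMA5 were called higher among the members. The median log2 difference of the 12 laminin chains was -0.04, against 0.04 over all genes tested. Of 35 members 4 differed between 24 h and 6 h, 2 higher and 2 lower, against 11.7% of all genes (4.15% higher and 7.54% lower). ITGB5 had 57.1 and 63.0 CPM at 24 h against 154 and 144 CPM at 6 h (log2 difference -1.30 ± 0.14, adjusted p = 3.85e-07), and this call held in all 9 alternatives. LAMB1 had 44.1 and 53.0 CPM at 24 h against 33.3 and 35.3 CPM at 6 h (0.52 ± 0.14, adjusted p = 0.0167). LAMA1 had 73.8 and 81.1 CPM at 24 h against 80.0 and 72.7 CPM at 6 h, overlapping (0.03, interval -0.22 to 0.27). LAMC1 had 208 and 249 CPM at 24 h against 268 and 239 CPM at 6 h, overlapping as well (-0.15, interval -0.38 to 0.09). ITGA6 had 273 and 268 CPM at 24 h against 271 and 268 CPM at 6 h, overlapping (0.00, interval -0.33 to 0.33). The LAMB1 call was lost without BRD replicate 1 at 6 h (adjusted p = 0.151), BRD replicate 2 at 6 h (0.0767) or BRD replicate 2 at 24 h (0.282). LAMA5 rose (47.2 against 30.1 CPM, 0.67 ± 0.17, adjusted p = 0.0110) until replicate 2 of either time was left out (0.132 at 6 h and 0.391 at 24 h). The number called was 2 without BRD replicate 1 at 6 h, and 1 without replicate 2 of either time. Of 29 adaptors 10 were lower and none higher here, with VCL at 468 against 1447 CPM (-1.62 ± 0.12, adjusted p = 6.28e-10).

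**Figure D3:**
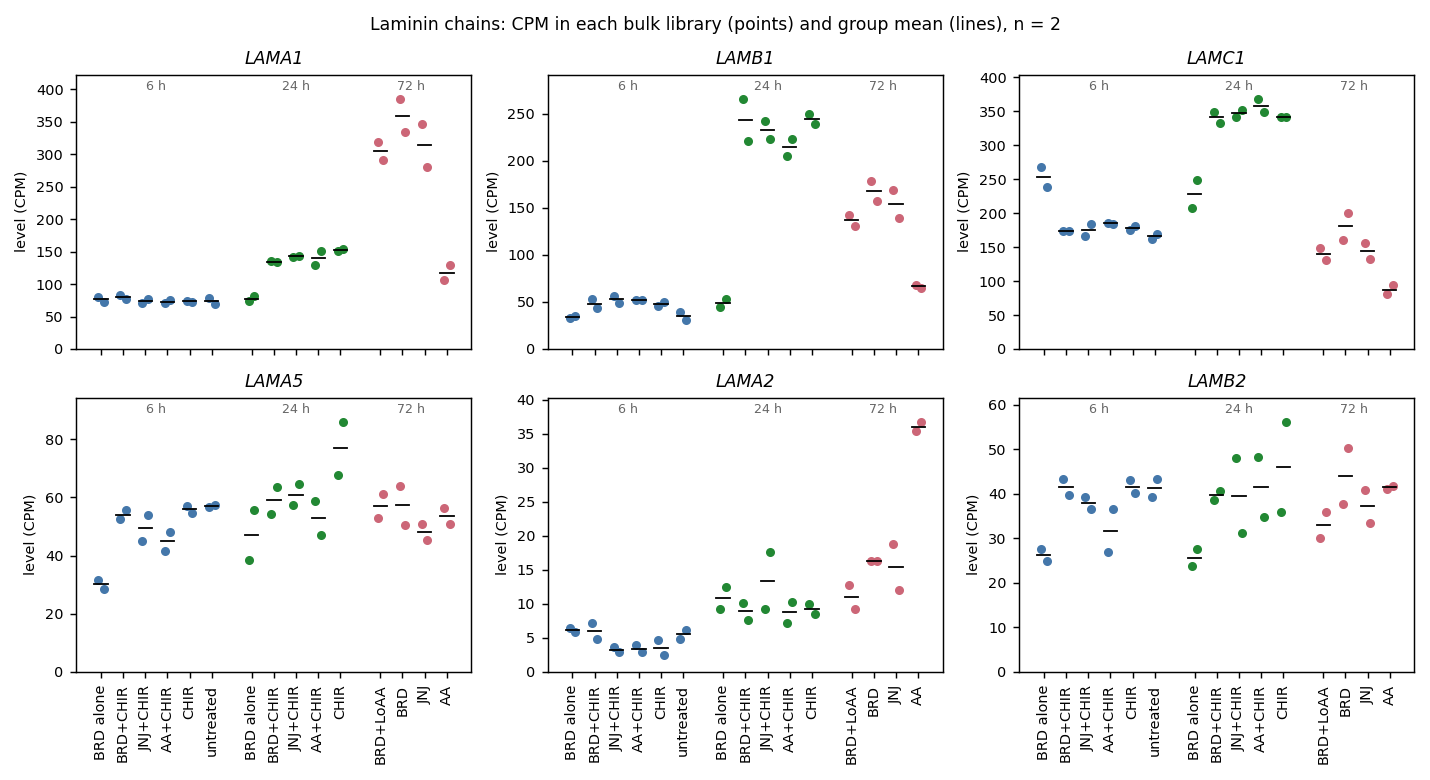
Levels of LAMA1, LAMB1, LAMC1, LAMA5, LAMA2 and LAMB2 in CPM (vertical axes) in the 15 bulk groups, ordered by time on the horizontal axes; each point is 1 library and each bar the mean of the 2. LAMB1 and LAMC1 are highest in the CHIR-treated groups at 24 h and lower in Activin A endoderm at 72 h than in the 3 compound groups.

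LAMB1 and LAMC1 were lower in Activin A endoderm at 72 h than in the 24 h cells. Between 72 h and 24 h under Activin A, 12 of 35 members differed, 3 higher and 9 lower, against 44.8% of all genes (21.5% higher and 23.4% lower), and the 72 h cells had been sorted while the 24 h cells had not. LAMC1 had 80.4 and 93.5 CPM at 72 h against 367 and 349 CPM at 24 h (log2 difference -2.05 ± 0.12, adjusted p = 2.65e-13). LAMB1 had 68.2 and 64.8 CPM at 72 h against 205 and 223 CPM at 24 h (-1.69 ± 0.14, adjusted p = 1.86e-10). LAMA1 had 106 and 129 CPM at 72 h against 129 and 150.5 CPM at 24 h and did not pass (-0.26 ± 0.12, adjusted p = 0.0829). 

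LAMA2, the alpha chain of muscle-type laminins, rose to 35.4 and 36.6 CPM at 72 h, against 7.23 and 10.3 CPM at 24 h (log2 difference 2.03 ± 0.36, adjusted p = 4.14e-05). ITGAV rose to 168 and 156 CPM at 72 h, against 60.7 and 43.9 CPM at 24 h (1.63 ± 0.20, adjusted p = 1.23e-07). ITGB8, another partner of alpha-V, rose to 20.7 and 17.0 CPM at 72 h, against 4.18 and 1.84 CPM at 24 h (2.65 ± 0.49, adjusted p = 8.15e-05). These are the 3 members that were higher at 72 h. The laminin receptor chain ITGA3 fell to 1.48 and 1.49 CPM at 72 h, against 14.2 and 9.77 CPM at 24 h (-3.01 ± 0.33, adjusted p = 2.53e-08). The collagen receptor chains ITGA1 (-3.32 ± 0.65, adjusted p = 0.000134) and ITGA2 (-1.88 ± 0.46, adjusted p = 0.00147) fell too, as did LAMC3 (-1.21 ± 0.32, adjusted p = 0.00319). LAMB3 was called lower too, from few counts: 0 in both 72 h libraries, which held 7409549 and 4572437 counts in all, against 28 and 13 at 24 h, in libraries of 27278153 and 25246305 counts. ITGA5 was lower at adjusted p = 0.0450 (-0.43 ± 0.17), a call lost without either 24 h library (0.110 each), 72 h replicate 1 (0.281) or 72 h replicate 2 (0.0522), with DESeq2 (0.0849) and with RLE size factors (0.0701). ITGA6 stayed low, at 29.3 and 33.7 CPM at 72 h against 49.5 and 29.0 CPM at 24 h (-0.33 ± 0.18, adjusted p = 0.150).

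At 72 h, endoderm made with a compound differed from endoderm made with Activin A across the family. LAMA1, LAMB1, LAMC1, ITGA2, ITGA3 and ITGA6 were among the members that were called higher with each compound, and ITGA4, ITGA9, ITGAV, ITGB5 and LAMA2 were called lower. Some of the ITGA6, ITGAV and LAMC1 calls were lost in alternatives, as given below. In BRD endoderm 13 of 27 tested members differed, 8 higher and 5 lower, against 21.3% of all genes (9.71% higher and 11.6% lower). In JNJ endoderm 12 of 27 differed, 7 higher and 5 lower, against 18.5% of all genes (8.57% higher and 9.92% lower). In BRD+LoAA endoderm 13 of 27 differed, 8 higher and 5 lower, against 19.4% of all genes (8.86% higher and 10.5% lower). The median log2 difference of the tested members was 0.54 in BRD, 0.40 in JNJ and 0.59 in BRD+LoAA endoderm, against 0.01, 0.01 and 0.02 over all genes tested. All 3 comparisons share the same 2 Activin A libraries.

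The 72 h groups also differed in markers, although all were sorted as endoderm. The 6 definitive endoderm markers summed to 716 CPM in BRD, 791 in JNJ and 654 in BRD+LoAA endoderm, against 5045 CPM in Activin A endoderm. Most of that sum was CER1, a secreted Nodal and BMP antagonist, at 70.5, 97.6 and 67.8 CPM in the 3 compound groups against 4059 CPM. SOX17 averaged 238, 242 and 231 CPM in the compound groups against 391 CPM, and FOXA2 58.5, 55.3 and 50.8 CPM against 17.2 CPM. The 3 extraembryonic markers summed to 128, 125 and 141 CPM against 6.22 CPM, nearly all of it GATA3 (127, 124 and 140 CPM against 5.64 CPM), with CDX2 at 0 in the compound groups. SOX2 averaged 19.2, 18.2 and 24.7 CPM in the compound groups against 1.47 CPM. The part of these marker differences in the integrin and laminin results was not tested.

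ITGA4 showed the widest gap. It had 0.317 and 1.83 CPM in BRD endoderm, 0.698 and 0.911 CPM in JNJ endoderm and 0 and 0.909 CPM in BRD+LoAA endoderm, against 48.4 and 62.6 CPM in Activin A endoderm. In counts, these are 2 and 15, 4 and 7, and 0 and 5, against 360 and 294. The log2 difference was -5.59 ± 0.54 in BRD (adjusted p = 1.26e-05), -6.07 ± 0.58 in JNJ (adjusted p = 1.18e-05) and -7.00 ± 0.64 in BRD+LoAA endoderm (adjusted p = 8.36e-06). At so few counts the size of these differences depends on the prior count of the fit, and ITGA4 passed the filter through the Activin A libraries. In the unsorted bulk libraries of 6 h and 24 h, ITGA4 was at 3.35 to 36.1 CPM. No unsorted bulk library of 72 h is among the samples, so these values do not show the 72 h cells before their sort.

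ITGA9, which forms the closest relative of the ITGA4 receptor, was lower without being lost. It had 13.6 and 9.62 CPM in BRD, 10.8 and 11.5 CPM in JNJ and 10.5 and 12.9 CPM in BRD+LoAA endoderm, against 39.9 and 32.4 CPM in Activin A endoderm. The log2 difference was -1.66 ± 0.25 in BRD (adjusted p = 0.000385), -1.71 ± 0.25 in JNJ (0.000349) and -1.63 ± 0.25 in BRD+LoAA endoderm (0.000529). Each compound library lay below each Activin A library.

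The vitronectin receptor chains were lower in compound endoderm, ITGB5 more so than ITGAV. ITGB5 had 68.5 and 93.1 CPM in BRD, 88.3 and 68.7 CPM in JNJ and 80.4 and 62.0 CPM in BRD+LoAA endoderm, against 231 and 237 CPM in Activin A endoderm. Its log2 difference was -1.54 ± 0.18 in BRD (adjusted p = 5.53e-05), -1.59 ± 0.18 in JNJ (4.99e-05) and -1.71 ± 0.18 in BRD+LoAA endoderm (2.89e-05). ITGAV had 119 and 125 CPM in BRD, 103 and 102 CPM in JNJ and 111 and 119.8 CPM in BRD+LoAA endoderm, against 168 and 156 CPM in Activin A endoderm. Its difference was -0.67 ± 0.12 in JNJ (adjusted p = 0.00173), a call that held in all 9 alternatives, -0.42 ± 0.12 in BRD (0.0266) and -0.49 ± 0.12 in BRD+LoAA endoderm (0.0134). The ITGAV call in BRD was lost without any 1 of the 4 libraries (adjusted p 0.0754 to 0.217) and in a single fit over all libraries (0.166), and that in BRD+LoAA in the same fit (0.0905) and without Activin A replicate 1 (0.140), Activin A replicate 2 (0.0624) or BRD+LoAA replicate 1 (0.0934).

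Of the alpha chains, ITGA3, ITGA2 and ITGA6 were called higher in all 3 kinds of compound endoderm. The ITGA6 call in BRD+LoAA endoderm was lost with DESeq2 and in a single fit over all libraries. The laminin-binding ITGA7 and the collagen-binding ITGA1 were not called in any. ITGA3 had 9.97 and 10.7 CPM in BRD, 8.02 and 10.3 CPM in JNJ and 10.4 and 10.2 CPM in BRD+LoAA endoderm, against 1.48 and 1.49 CPM in Activin A endoderm. Its log2 difference was 2.77 ± 0.38 in BRD (adjusted p = 0.000187), 2.60 ± 0.38 in JNJ (0.000350) and 2.78 ± 0.38 in BRD+LoAA endoderm (0.000211). With its Activin A level near the floor, ITGA3 passed the filter on low counts through the compound libraries. ITGA2, the collagen-binding chain, had 22.6 and 10.5 CPM in BRD, 15.3 and 13.9 CPM in JNJ and 12.6 and 13.3 CPM in BRD+LoAA endoderm, against 2.96 and 2.56 CPM in Activin A endoderm. It was higher by 2.55 ± 0.40 in BRD (adjusted p = 0.000533), 2.37 ± 0.40 in JNJ (0.00105) and 2.21 ± 0.40 in BRD+LoAA endoderm (0.00189). Neither chain overlapped between a compound group and Activin A endoderm.

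ITGA6, far below its stem cell level in all 4 groups, had 51.3 and 62.8 CPM in BRD, 59.8 and 53.5 CPM in JNJ and 47.6 and 43.4 CPM in BRD+LoAA endoderm, against 29.3 and 33.7 CPM in Activin A endoderm. Its log2 difference was 0.85 ± 0.16 in BRD (adjusted p = 0.00252) and 0.84 ± 0.17 in JNJ endoderm (0.00329), and both calls held in all 9 alternatives. In BRD+LoAA endoderm it was 0.54 ± 0.17 (0.0395) and was lost when any 1 of the 4 libraries was left out (0.0665 to 0.234), with DESeq2 (0.0625) and in a single fit over all libraries (0.0531). ITGA5 had 155 and 136 CPM in BRD, 118 and 147 CPM in JNJ and 174 and 127 CPM in BRD+LoAA endoderm, against 92.0 and 108 CPM in Activin A endoderm. It was called in BRD (0.53 ± 0.17, adjusted p = 0.0432) and BRD+LoAA (0.59 ± 0.17, 0.0286) and not in JNJ endoderm (0.40, 0.135). Its call in BRD was lost without Activin A replicate 1 (0.247), Activin A replicate 2 (0.0641) or BRD replicate 1 (0.164), and in BRD+LoAA without Activin A replicate 1 (0.200), Activin A replicate 2 (0.0520) or BRD+LoAA replicate 1 (0.248). ITGB1 was not called in any of the 3 (BRD -0.30, adjusted p = 0.114). A single edgeR fit over all libraries did call it lower in BRD (-0.29, adjusted p = 0.0369) and BRD+LoAA endoderm (-0.29, 0.0426).

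The chains of the early embryonic laminins were higher in compound endoderm, except LAMA5. LAMA1 had 384 and 334 CPM in BRD, 347 and 281 CPM in JNJ and 319 and 291 CPM in BRD+LoAA endoderm, against 106 and 129 CPM in Activin A endoderm. Its log2 difference was 1.61 ± 0.16 in BRD (adjusted p = 1.44e-05), 1.41 ± 0.16 in JNJ (4.66e-05) and 1.38 ± 0.16 in BRD+LoAA endoderm (5.46e-05). LAMB1 had 179 and 157 CPM in BRD, 169 and 139 CPM in JNJ and 142 and 131 CPM in BRD+LoAA endoderm, against 68.2 and 64.8 CPM in Activin A endoderm. Both chains were apart in every library, and their 6 calls held in all 9 alternatives. LAMB1 differed by 1.32 ± 0.15 in BRD (adjusted p = 3.73e-05), 1.20 ± 0.15 in JNJ (9.57e-05) and 1.04 ± 0.15 in BRD+LoAA endoderm (0.000279).

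LAMC1 had 161 and 200.2 CPM in BRD, 156 and 132 CPM in JNJ and 148 and 131 CPM in BRD+LoAA endoderm, against 80.4 and 93.5 CPM in Activin A endoderm. It was higher by 1.04 ± 0.15 in BRD (adjusted p = 0.000357), 0.72 ± 0.15 in JNJ (0.00574) and 0.68 ± 0.15 in BRD+LoAA endoderm (0.00772). Without Activin A replicate 1 its call was lost in JNJ (0.0731) and in BRD+LoAA (0.0878), and the BRD+LoAA call also without BRD+LoAA replicate 1 (0.0648). LAMA2 went the other way, with 16.3 and 16.3 CPM in BRD, 18.8 and 12.0 CPM in JNJ and 12.8 and 9.27 CPM in BRD+LoAA endoderm, against 35.4 and 36.6 CPM in Activin A endoderm (-1.15 ± 0.25, -1.25 ± 0.25 and -1.70 ± 0.26, each called). LAMA5 had 63.8 and 50.6 CPM in BRD against 56.4 and 50.9 CPM in Activin A endoderm, overlapping (0.08, interval -0.28 to 0.43).

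**Figure D4:**
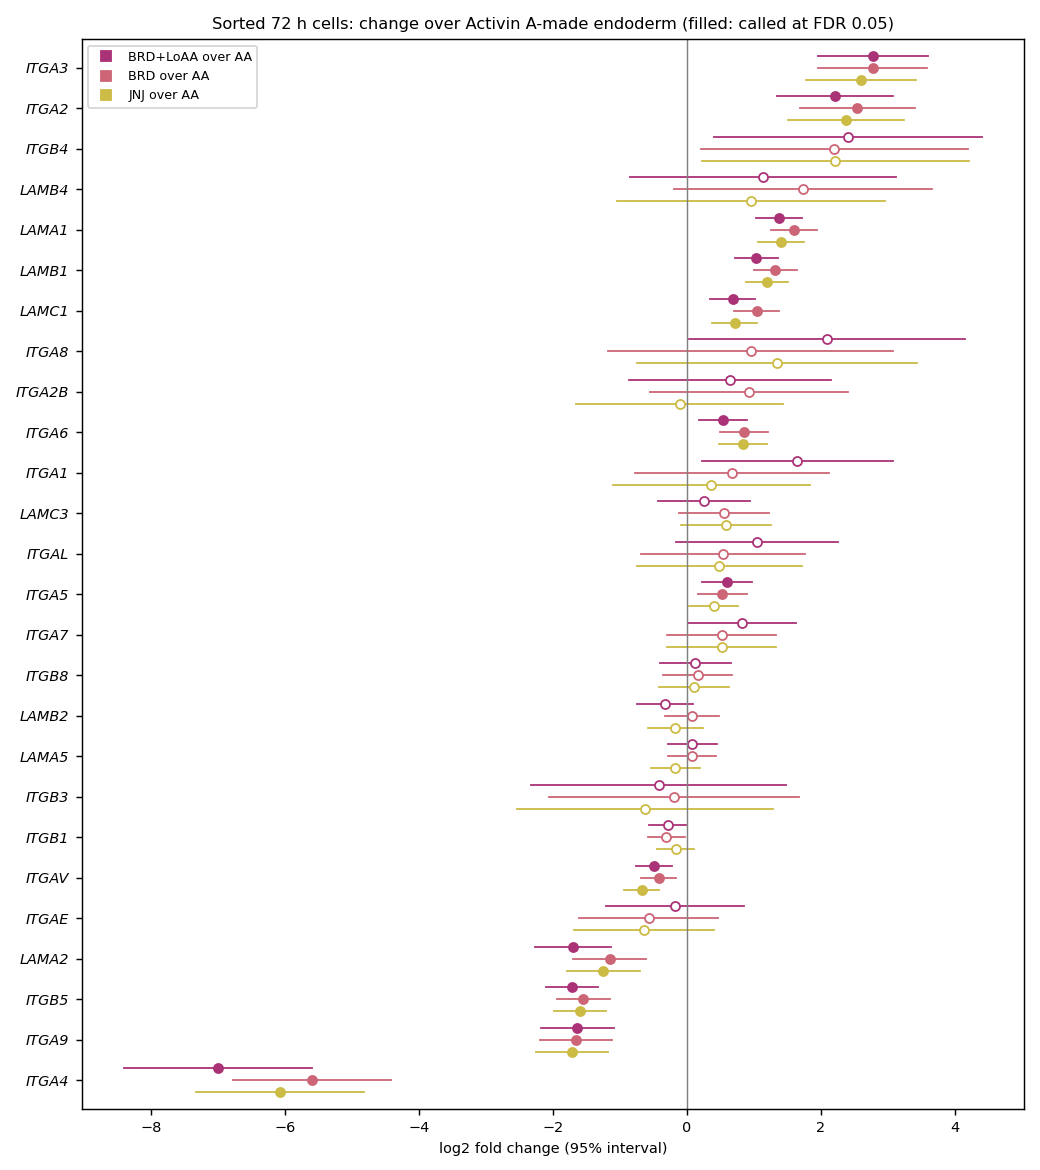
Log2 difference from Activin A endoderm at 72 h (horizontal axis) of the tested members reported here, for BRD, JNJ and BRD+LoAA endoderm; points are edgeR estimates and bars their 95% intervals. ITGA4 lies between -7.00 and -5.59, and LAMA1, LAMB1 and LAMC1 lie to the right of 0 in all 3 comparisons.

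Per kilobase of exon, LAMA1 stood at 36.4 CPM per kb and LAMA5 at 4.89 in BRD endoderm, against 11.9 and 4.59 in Activin A endoderm. LAMC1 stood at 22.7 and LAMB1 at 25.4 CPM per kb in BRD endoderm, against 10.9 and 10.0 in Activin A endoderm.

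The matrix around the members shifted too. Of 18 other basement membrane components tested, 11 were higher and 2 lower in BRD, 10 and 2 in JNJ, and 9 and 2 in BRD+LoAA endoderm. Of all genes tested, 9.71% were higher and 11.6% lower in BRD, 8.57% and 9.92% in JNJ, and 8.86% and 10.5% in BRD+LoAA endoderm. COL4A6, a type IV collagen chain, averaged 175 CPM in BRD endoderm against 34.9 CPM in Activin A endoderm (log2 difference 2.32 ± 0.17, adjusted p = 1.00e-06), and EGFLAM (pikachurin), a dystroglycan ligand, 37.9 against 4.75 CPM (3.01 ± 0.25, adjusted p = 3.64e-06). FREM1, a basement membrane protein of the Fraser complex, was among the 2 that were lower (7.82 against 94.3 CPM, -3.61 ± 0.25, adjusted p = 7.01e-07). Of 19 other integrin ligands, 7 were higher and 2 lower in BRD, 8 and 2 in JNJ, and 7 and 2 in BRD+LoAA endoderm. Fibronectin (FN1), the ligand of alpha-5 beta-1, averaged 2458 CPM in BRD endoderm against 438 CPM in Activin A endoderm (2.47 ± 0.18, adjusted p = 1.44e-06).

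Among the integrin adaptors and regulators more genes were lower than higher. Of 28 tested, 2 were higher and 9 lower in BRD, and 3 were higher and 8 lower in JNJ and in BRD+LoAA endoderm. Of all genes tested, 11.6% were lower in BRD, 9.92% in JNJ and 10.5% in BRD+LoAA endoderm, and 9.71%, 8.57% and 8.86% were higher. VCL averaged 254 CPM in BRD endoderm against 773 CPM in Activin A endoderm (log2 difference -1.62 ± 0.15, adjusted p = 1.08e-05), and TLN1 (talin-1), which couples integrin tails to actin, 126 against 235 CPM (-0.92 ± 0.12, adjusted p = 0.000169). TNS3 (tensin-3) was higher (92.1 against 40.2 CPM, 1.17 ± 0.16, adjusted p = 0.000231). Of 20 non-integrin laminin receptors and netrins, 6 were higher and 3 lower in BRD and in JNJ, and 4 and 2 in BRD+LoAA endoderm. BCAM, a receptor of the laminin alpha-5 chain, averaged 59.4 CPM in BRD endoderm against 10.2 CPM in Activin A endoderm (2.58 ± 0.23, adjusted p = 7.23e-06), and NTN1 33.02 against 92.84 CPM (-1.50 ± 0.22, adjusted p = 0.000342).

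The compounds were not told apart from each other by these genes. BRD against JNJ endoderm gave 0 calls among 27 members by edgeR, with 1 below an unadjusted p of 0.05 and 0 by DESeq2, and 0% of all genes was called. BRD+LoAA against BRD endoderm likewise gave 0 calls, 1 below an unadjusted p of 0.05 and 0 by DESeq2, against 0% of all genes. The unadjusted p under 0.05 was that of LAMC1 in both: 161 and 200.2 CPM in BRD endoderm against 156 and 132 CPM in JNJ endoderm (log2 difference 0.33, interval 0.00 to 0.65), and 148 and 131 CPM in BRD+LoAA against the same BRD libraries (-0.36, interval -0.69 to -0.03). For LAMA1 the difference between BRD and JNJ endoderm was 0.20 with an interval of -0.14 to 0.53, for ITGA6 it was 0.01 (-0.33 to 0.36), and for ITGAV 0.26 (-0.01 to 0.52). A test that finds nothing here does not show that the compounds act alike.

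In single cells the endoderm library had less ITGA6 and more ITGAV, ITGA4 and ITGA9 than the other 2 libraries. There was 1 library per condition and so no test. After cells with under 500 genes or over 10% mitochondrial UMIs were removed, 4511 cells labelled endoderm at 72 h, 5632 labelled mesoderm at 72 h and 4193 labelled primitive streak at 36 h remained, with median depths of 7680, 7873.5 and 21152 UMIs. SOX17 was at 122 CPM in the endoderm library and had 0 UMIs in the other 2, and TBXT, a primitive streak and mesoderm gene, was at 3.05 CPM in endoderm, 326 CPM in mesoderm and 28.3 CPM at 36 h. Each pair of libraries shared 23 to 38 cell barcodes. Summed counts are given with exact 95% Poisson intervals, which cover counting error only.

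ITGA6 was at 2.04 CPM (1.59 to 2.58) in endoderm, against 14.8 CPM (13.7 to 16.0) in mesoderm and 18.0 CPM (17.1 to 19.0) at 36 h. ITGAV was at 22.5 CPM (21.0 to 24.2) in endoderm, against 7.16 CPM (6.40 to 7.99) in mesoderm and 6.70 CPM (6.13 to 7.30) at 36 h. The endoderm library thus had the lowest ITGA6 and the highest ITGAV of the 3. LAMC1 was at 9.12 CPM (8.13 to 10.2) in endoderm, against 34.5 CPM (32.8 to 36.3) in mesoderm and 17.6 CPM (16.7 to 18.6) at 36 h. ITGB5 was at 54.6 CPM (52.1 to 57.1) in endoderm, against 34.3 CPM (32.6 to 36.0) in mesoderm and 38.2 CPM (36.8 to 39.6) at 36 h. The intervals of the 2 libraries at 72 h do not overlap for any of these 4 chains. ITGB1 was at 134 CPM in endoderm against 147 in mesoderm, ITGA5 at 10.1 against 9.51, LAMB1 at 11.2 against 10.2, LAMA1 at 11.3 against 6.61 and LAMA5 at 13.3 against 10.3 CPM. At 36 h ITGB1 was at 83.6 CPM, ITGA5 at 4.002, LAMB1 at 7.20, LAMA1 at 6.24 and LAMA5 at 5.21. All were below the endoderm values. ITGA5 and LAMB1 were higher in endoderm than at 36 h, whereas in bulk both were lower in Activin A endoderm than at 24 h. The bulk difference of ITGA5 was small, and its call was lost with DESeq2 and with RLE size factors. LAMC1 was lower in endoderm in both kinds of data. The starting times differ, and the cause was not tested.

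ITGA4 and ITGA9, chosen after their values were seen, had 117 and 170 UMIs in endoderm, against 1 and 17 UMIs in the larger mesoderm library and 48 and 25 UMIs at 36 h. ITGA4 was thus at 3.46 CPM (2.86 to 4.15) in endoderm against 0.0222 CPM (0.000561 to 0.124) in mesoderm. ITGAE, the alpha chain of a leukocyte receptor for E-cadherin, was at 65.4 CPM in endoderm against 132 CPM in mesoderm, far more than its share of the bulk libraries (2.53 to 24.8 CPM). HASPIN lies inside ITGAE on the opposite strand in the annotation, and PTPRC, a pan-leukocyte gene, had at most 1 UMI per library.

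Thinning each cell to 2000 UMIs, which left out 826 endoderm, 93 mesoderm and 777 36 h cells, set the libraries at one depth. ITGA6 then had a UMI in 0.244% of endoderm cells (exact Clopper-Pearson 95% interval 0.112% to 0.463%), against 2.71% (2.30% to 3.17%) of mesoderm cells and 3.57% (2.97% to 4.25%) of 36 h cells. ITGAV had one in 3.96% (3.36% to 4.64%) of endoderm cells, against 1.37% (1.08% to 1.71%) of mesoderm cells and 1.02% (0.715% to 1.42%) of 36 h cells. Without thinning the shares were 1.49%, 10.8% and 25.5% for ITGA6 and 13.9%, 5.52% and 11.2% for ITGAV, the 36 h cells being the deepest. How much of these shares came from free RNA was not tested.

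**Figure D5:**
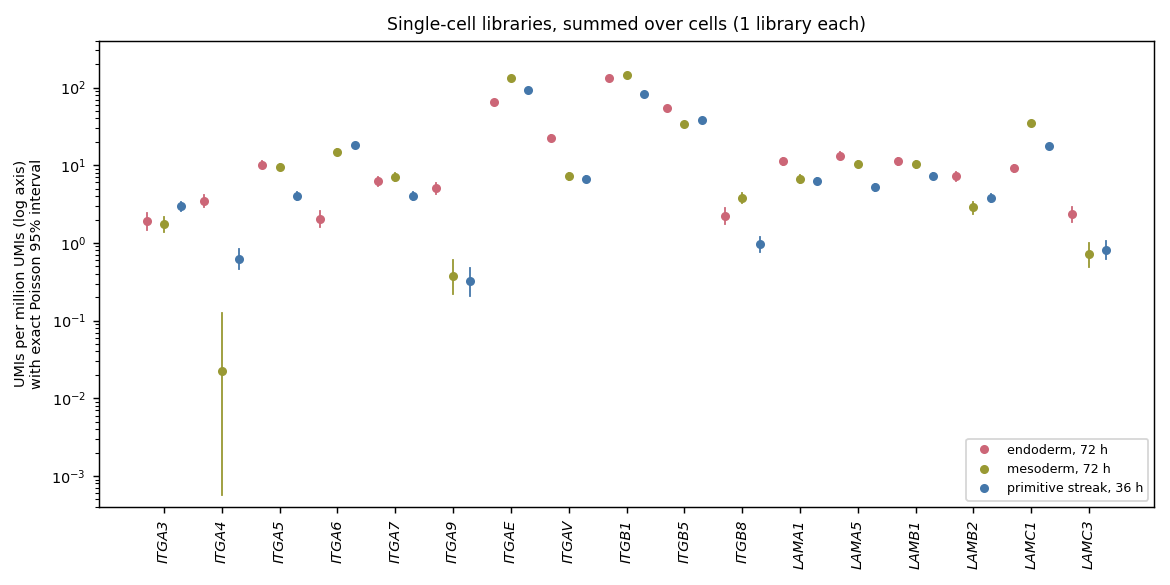
Summed level of 17 members in CPM (log axis) in the single-cell libraries of endoderm and mesoderm at 72 h and primitive streak at 36 h; points are the summed counts of the cells kept and bars exact 95% Poisson intervals. ITGA6 is at 2.04 CPM in endoderm against 14.8 CPM in mesoderm, and ITGAV at 22.5 against 7.16 CPM.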

How the data were processed

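Bulk RNA was read with a stranded total RNA kit in single-end mode and single cells with a 3′ droplet kit, per the labels' protocols. The bulk table holds expected counts per gene symbol, deposited by the authors. Salmon 1.4.0, limma 3.48.1, edgeR 3.34.0, Seurat 4.0.2 and Cell Ranger are named in the submitters' processing notes. The single-cell matrices hold UMI counts as deposited, made with Cell Ranger 3.0.2 per the file headers.

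Expected counts were rounded and fitted with edgeR 4.0.16 in R 4.3.3: a filter on low counts (filterByExpr), TMM scaling and a quasi-likelihood test with Benjamini-Hochberg adjustment at 0.05. There was 1 fit per stage (12, 10 and 8 libraries; 14874, 15586 and 13889 genes) and 1 over all 30 libraries (16098 genes) for differences between times, and groups came from the labels. SE is the absolute log2 fold change over the square root of F, and 95% intervals follow from it. Residual degrees of freedom were 6, 5, 4 and 15, and the common coefficient of variation was 0.140, 0.406, 0.165 and 0.256 in the same order. CPM used TMM factors over all 30 libraries, and CPM per kb the exon length of GENCODE 29. The code was tested on simulated data.

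The alternatives were RLE size factors, no filter, DESeq2 1.42.0, other sets of libraries, a replicate block and each library left out. Single cells were kept at 500 or more genes and at most 10% mitochondrial UMIs; no doublet caller was run, so doublets remain. The members and lists were chosen with earlier results of these data known. Named were 8 members in every comparison (ITGA6, ITGA5, ITGAV, ITGB1, LAMA1, LAMA5, LAMB1, LAMC1), up to 12 called rises and 12 called falls without overlap whose higher mean was 1 CPM or more, up to 3 called genes of each other list, and in single cells members with at least 20 CPM. Several members overlap genes on the opposite strand (ITGA6-AS1, LAMA5-AS1, HASPIN), and whether the counting used strand is not given in the sources used here. The values of 1 member are not reported here, although counts of members include it. Promoter sequences are those of RefSeq on GRCh38.p14.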

Additional observations from a re-analysis of the deposited data

Results flagged for a closer look

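Here 3 results were singled out because the Activin A effect differed between 6 h and 24 h by a test of the difference itself, the interaction of treatment and time in one edgeR quasi-likelihood fit over 30 libraries. ITGA6 had an interaction of -1.32 on the log2 scale (SE 0.23, adjusted p = 0.00118). ITGA3 had an interaction of -1.64 (SE 0.35, adjusted p = 0.00841). ITGA5 had an interaction of 1.17 (SE 0.25, adjusted p = 0.00836). The 6 h and 24 h sets also carry different title series, so time and series cannot be told apart, although each Activin A effect was taken within its own series. No group held the 4 or more libraries that a search for outlying samples needs.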

How the results depend on the processing

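Of 102 calls of members that met the naming rule in the 19 comparisons, 64 held in every alternative tried, 38 were lost in at least 1, and 0 changed direction. The LAMB3 call at 72 h against 24 h lay below the 1 CPM of that rule and was not followed. Of the counts of members called, 5 moved by over 1.5 times with settings other than leaving out a library. With a single fit over all 30 libraries, Activin A with CHIR against CHIR had 0 members called at 6 h (3 in the report) and 8 at 24 h (5 in the report), JNJ with CHIR against CHIR at 24 h had 1 (0 in the report), and against Activin A with CHIR at 24 h BRD with CHIR had 6 and JNJ with CHIR 8 (3 each in the report). DESeq2 gave 6 for both of the last 2 comparisons. The cause was not tested.

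With 1 library left out, the number called ranged from 1 to 2 for Activin A at 6 h, 2 to 4 at 24 h, and 1 to 3 for the difference of both times. It ranged from 2 to 4 for BRD and for JNJ against Activin A at 24 h, and at 72 h from 11 to 12 for BRD, 11 to 12 for JNJ and 9 to 12 for BRD+LoAA. Between times it ranged from 8 to 12 with CHIR, 11 to 15 with Activin A and CHIR, 1 to 3 with BRD alone and 10 to 13 for Activin A at 72 h against 24 h. Leaving out a library moved the counts for Activin A at 6 h and at 24 h, for the difference of both times and for the 24 h against 6 h comparisons with CHIR, with Activin A and CHIR and with BRD alone by over 1.5 times. Where 0 members were called in the report it stayed at 0 in each of these fits, in which a lone library is assumed to vary like the other groups.

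With the replicate number as a block, the numbers called were 3 for Activin A at 6 h, 4 at 24 h and 3 for the difference of both times, 3 each for BRD and JNJ against Activin A at 24 h, 12 each for BRD, JNJ and BRD+LoAA at 72 h, and 14, 17, 4 and 12 between times in the order given. The block ended 4 calls: ITGA3 for Activin A at 24 h (adjusted p = 0.0562), ITGA5 in BRD (0.0656) and ITGA6 in BRD+LoAA endoderm (0.0570), and ITGB5 between times with CHIR (0.0514). Same-numbered libraries did not deviate together: over 9976 genes their correlations ran from -0.119 to 0.0806 at 6 h, -0.0468 to 0.0555 at 24 h and -0.241 to 0.272 at 72 h, so the numbers were not treated as pairs. The 2 libraries per group limit what could be detected, the single-cell values have no replicate, and shares of cells change with the thinning depth (ITGA6 in mesoderm 2.71% at 2000 UMIs and 1.69% at 1000).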

Other observations

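Some chains were called in no bulk comparison. LAMB2, the beta chain of neuromuscular and kidney-type laminins, ranged from 23.7 to 56.1 CPM over the 30 bulk libraries and was called in 0 of 19 comparisons by edgeR. In single cells it was at 7.22 CPM (Poisson 95% interval 6.34 to 8.19) in endoderm against 2.86 CPM (2.39 to 3.40) in mesoderm. ITGA7, a laminin-binding alpha chain best known in muscle, ranged from 7.36 to 17.1 CPM and was likewise called in 0. The other members called in no comparison were ITGA11, ITGAL, ITGAM, ITGAX, ITGB2, ITGB3, ITGB7, LAMA3, LAMA4 and LAMB4. At the other end ITGA6 was called in 10 of the 19 comparisons, ITGA5 in 9 and ITGA3 in 8, counts that include comparisons sharing control libraries.

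ITGAE fell between 6 h and 24 h in both arms of the first day. It had 7.24 and 7.04 CPM at 24 h against 18.4 and 18.5 CPM at 6 h with CHIR (log2 difference -1.37 ± 0.33, adjusted p = 0.00195), and 5.74 and 5.90 CPM at 24 h against 24.8 and 12.9 CPM at 6 h with Activin A and CHIR (-1.69 ± 0.34, adjusted p = 0.000223). With BRD alone it was at 3.98 and 2.58 CPM at 24 h against 5.20 and 4.53 CPM at 6 h. BRD alone is in title series 46 and the other arms are in series 33 at 6 h and 38 at 24 h. Treatment and series therefore cannot be told apart between them, nor time and series within those arms. In the single-cell libraries ITGAE ranked with ITGB1 instead, at 65.4 CPM in endoderm, 132 CPM in mesoderm and 92.3 CPM at 36 h. What separates the bulk from the 3′ single-cell values was not tested.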
